A study of Drosophila melanogaster with 12 samples.

Results

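The genes of the translation initiation factors (eIF) and elongation factors (eEF) were described across Egg ChIP-seq and input libraries of Drosophila melanogaster ovarian somatic cells (OSCs). They were chosen by name alone: every gene of the deposited table whose symbol begins with eIF or eEF, directly or through its RefSeq accession. This gave 53 of 16774 genes, with 123 transcript rows in all. Symbols in the table named 33 of them, and 20 were recognised only through the accession, such as eIF3m, which the table lists under Tango7. Of these genes, 50 had enough reads to be tested, as had 12557 genes of the whole table. The 3 that did not were eIF4E6, eEF1beta and eEF5.

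Egg (Eggless) is the SETDB1 of flies. It methylates histone H3 and helps to keep transposons silent. OSCs are a cultured line of the somatic cells that surround the fly germline. Per the labels, DNA bound by Egg was collected with an antibody to Egg from cells fixed with formaldehyde after 4 days of knockdown, and input DNA was sequenced beside it. The groups described here are the Egg ChIP of cells with Egg depleted (siEgg), the input of the same cells, and the Egg ChIP and input of cells given siRNA against EGFP (siEGFP), the control. All 4 groups are of the same cell type and carry the same fixation. The labels list 2 samples in each of these groups, but the table holds 1 value column per group with no replicate number. A column may be 1 sample or a pool of both, and is called a library here. ChIP and input groups of siPiwi and siWde cells were not analysed here. What was measured is chromatin-associated DNA over the transcript rows of each gene and not its expression. A row can be shorter than its gene: the row of eIF1 came out at 681 bases, while the gene spans 1310. DNA of a gene outside its rows was then not counted, though the positions given below are those of the whole gene.

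Initiation factors bring the small ribosomal subunit and the initiator tRNA to the capped end of an mRNA and guide the search for the start codon. Elongation factors then deliver aminoacyl-tRNA and move the ribosome along. These are mostly housekeeping genes, but several have paralogues that flies use in the testis. Egg is best known at transposons and in heterochromatin, near the centromeres and along chromosome 4, and most of these genes lie outside such regions.

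The libraries held 1698148 reads for the siEgg ChIP, 2293964 for the siEgg input, 1796866 for the siEGFP ChIP and 2183061 for the siEGFP input, with 33.6% to 36.8% of the reads in rows of the table. Over the 53 genes the libraries were shallow. The median gene tested had 19.5 reads in the siEgg ChIP, 24 in the siEgg input, 18 in the siEGFP ChIP and 24.5 in the siEGFP input. Values are therefore given with a 95% interval that covers counting error only. With 1 library per group there is no spread between replicates and no p-value, and every comparison below is between libraries.

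The siEGFP ChIP against its input asked where Egg lies. Enrichment is log2 of ChIP over input RPKM (reads per unit of row length and of library depth), with 0.7 RPKM added to each. A gene was called higher or lower when the log2 value was at least 1 in size, which is 2-fold, and its interval left out 0. In siEGFP cells 6 of the 50 genes were higher in the ChIP, eEF1delta, eIF4E1, eIF1, eIF3a, eIF3m and eIF3b, where 5.57% of all genes tested were. Of these, eEF1delta and eIF1 had enough reads to be tested only with their siEGFP ChIP reads counted. Their place among the 6 thus depends on the value that admitted them. In the other direction 3 were lower, eIF2D, eIF4E5 and eEF1gamma, where 7.48% of all genes were. In siEgg cells none of the 50 was higher or lower, against backgrounds of 1.24% and 1.1%. The median log2 ratio of the 50 genes was 0.02 in siEgg cells and -0.18 in siEGFP cells, beside -0.04 and -0.29 for all genes. Their values had an SD across genes of 0.36 in siEgg and 0.78 in siEGFP cells, beside 0.47 and 0.74 for all genes. In siEGFP cells the interval of 36 of the 50 covered 0, so for most translation factor genes no Egg signal apart from input was detectable at this depth.

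**Figure D1:**
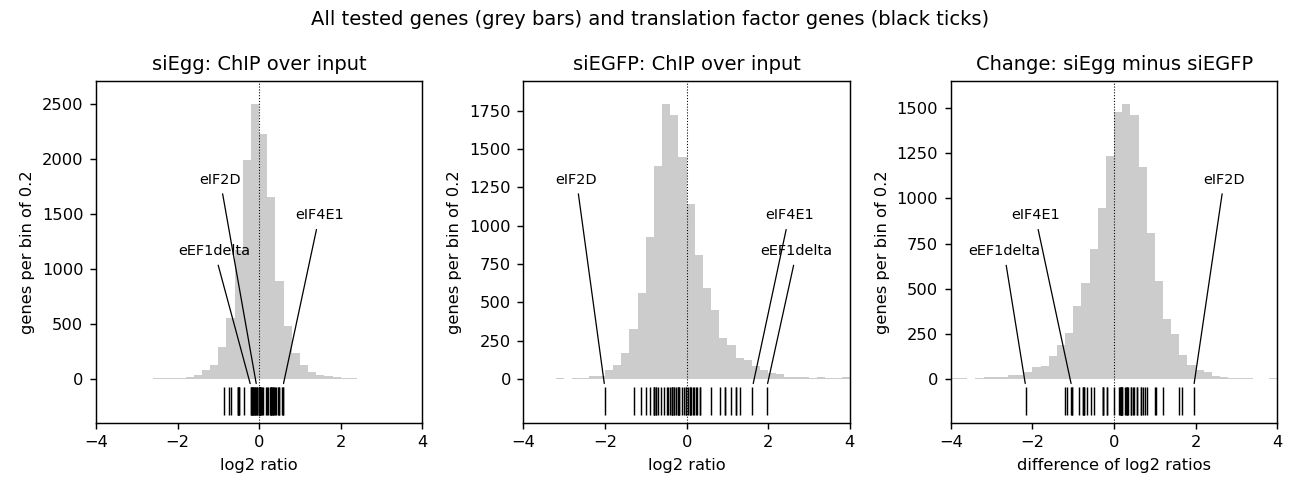
Grey bars count all 12557 genes tested by log2 ChIP over input in siEgg cells (left) and siEGFP cells (middle), and by siEgg minus siEGFP enrichment (right), with values beyond 4 in size placed in the end bins. Black ticks are the 50 translation factor genes; they lie within 1 of 0 in siEgg cells, and eEF1delta and eIF4E1 stand at the high end and eIF2D at the low end in siEGFP cells.

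These counts rest on where 0 is set. Centring each ratio on its median gene gave 9 higher and 1 lower of the translation factor genes in siEGFP cells (1144 and 308 of all genes), and quantile scaling gave 3 and 2 (619 and 271 of all genes, beside 699 and 939 without it). The median of the 50 genes in siEGFP cells then lay at 0.11 and 0.05, above 0 and not below it. It lay above the median of all genes by 0.11 without scaling and by 0.10 with quantile scaling. Centring shifts all genes alike, so it leaves the gap of 0.11 unchanged by construction. Quantile scaling ended the calls of eIF1, eIF3m, eIF3b, eIF4E5 and eEF1gamma, and added eIF4EHP as lower. A pseudocount 5 times larger ended those of eIF3a, eIF3m, eIF3b, eIF4E5 and eEF1gamma.

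The change, siEgg minus siEGFP enrichment, asked how far the signal depends on Egg. By the same size and interval rule 3 genes fell, eEF1delta, eIF4E1 and eIF3b, where 3.24% of all genes did, and 1 rose, eIF2D, where 4.93% of all genes did. The median change was 0.18 for the 50 genes and 0.22 for all genes. All 6 genes higher in siEGFP cells had a change below 0, and 3 of the 6 passed the threshold. Among all 699 genes higher in siEGFP cells, 290 fell, or 41.5%. Since these genes were picked as high on the siEGFP value that also enters the change, a change below 0 is no independent evidence. The same holds for a rise of genes picked as low. Among all 939 genes lower in siEGFP cells, 319 rose, or 34.0%, and 1 of the 3 translation factor genes did. Centring gave 1 gene risen and 5 fallen, with 261 and 672 of all genes, and quantile scaling gave 0 and 3, with 298 and 363, beside 619 and 407 of all genes without it. Those scalings put the median change of the 50 genes at -0.04 and -0.00, against 0 and 0.03 for all genes.

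**Figure D2:**
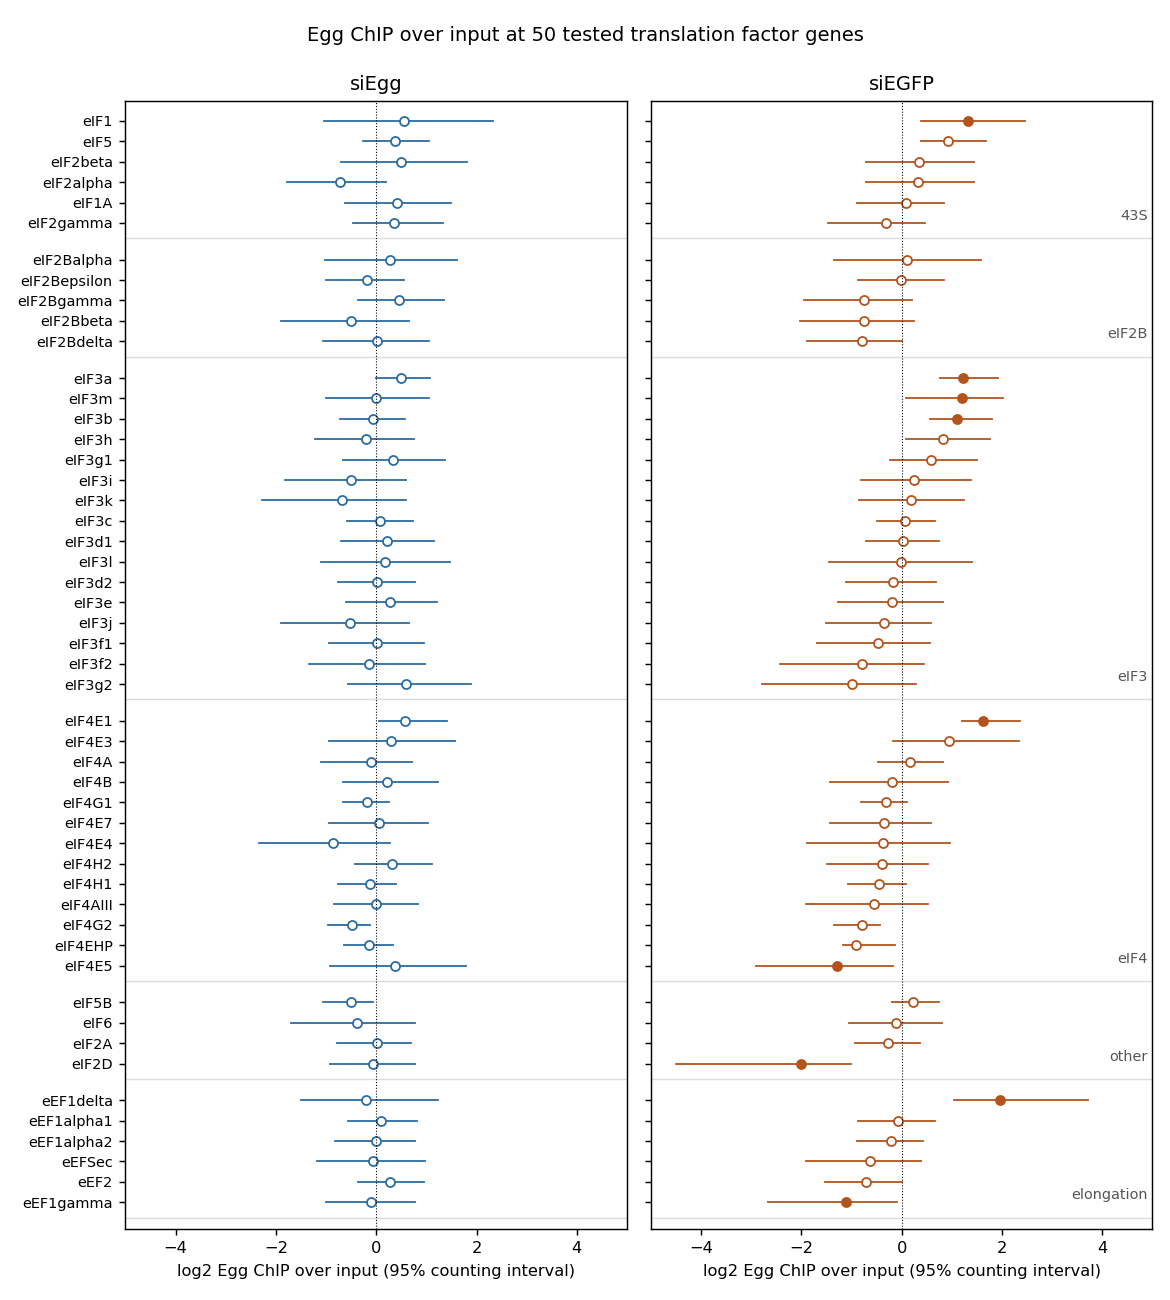
Log2 Egg ChIP over input with its 95% counting interval for each of the 50 translation factor genes, in siEgg cells (left, blue) and siEGFP cells (right, orange), grouped by role and ordered by the siEGFP value. Filled points passed the threshold: none in siEgg cells, 6 higher and 3 lower in siEGFP cells.

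The cap-binding factors contained the gene with the most siEGFP ChIP reads among those enriched. eIF4E1 encodes the main cap-binding protein and lies at 3L:9399618-9402460 (dm6). It had 16.8 RPKM in the siEgg ChIP, 11.0 in the siEgg input, 36.7 in the siEGFP ChIP and 11.5 in the siEGFP input, from 43, 35, 98 and 35 reads. The siEGFP ChIP was the high library, while the inputs lay close together. Its log2 enrichment was 0.58 in siEgg cells (0.05 to 1.42) and 1.62 in siEGFP cells (1.20 to 2.37), a 3.06-fold ratio. The change of -1.03 (-1.88 to -0.19) passed the threshold, which it did not with a larger pseudocount (-0.94) or quantile scaling (-0.55). eIF4E1 was the 1 gene of the 50 whose siEgg interval lay above 0.

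The siEGFP ChIP reads of eIF4E1 were spread over several transcript rows. Reads of a gene appear divided among its rows, which overlap in sequence, so the rows are not independent. Their agreement cannot show whether the signal comes from 1 stretch of the gene or from more. The same limit holds for the row counts of other genes below. Across its 9 rows, ChIP exceeded input in 4 in siEgg cells and in 8 in siEGFP cells, and ChIP RPKM was lower in siEgg than in siEGFP cells in 8. The row with the highest siEGFP ChIP value had 5.80 RPKM in the siEgg ChIP, 1.14 in the siEgg input, 8.40 in the siEGFP ChIP and 1.50 in the siEGFP input.

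**Figure D3:**
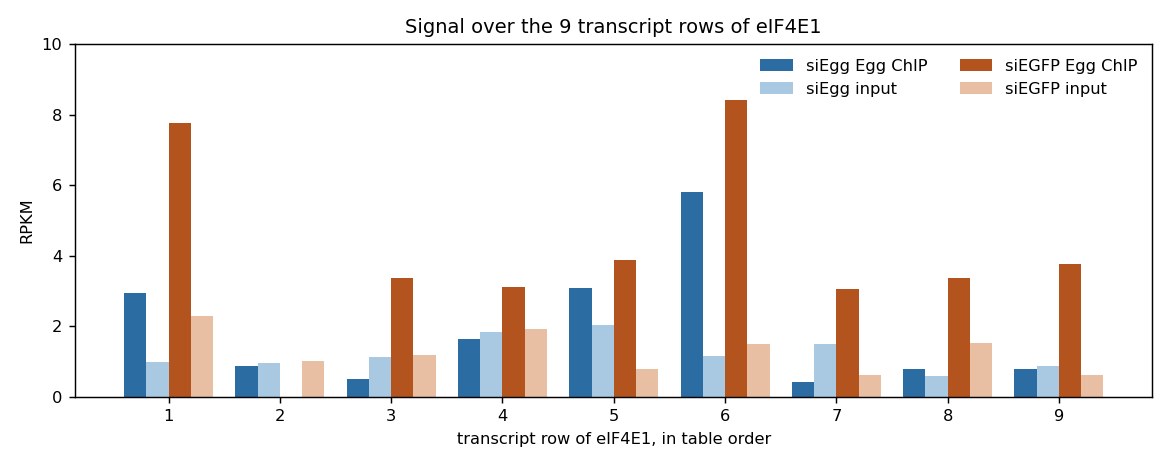
RPKM over each of the 9 transcript rows of eIF4E1 in the siEgg ChIP and input (blue) and the siEGFP ChIP and input (orange). The siEGFP ChIP is above its input in 8 rows, and the second row has no siEGFP ChIP read.

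None of the other eIF4E genes tested was called higher in siEGFP cells. eIF4E3, whose product is used in spermatogenesis, had 12 ChIP and 13 input reads in siEgg cells and 17 and 10 in siEGFP cells. Its siEGFP value of 0.94 lay just under the threshold, with a wide interval (-0.16 to 2.34). Centred on the median gene its siEGFP value was 1.23 and was called. eIF4E4 and eIF4E7 are further cap-binding paralogues. eIF4E4 had 8 ChIP and 21 input reads in siEgg and 8 and 13 in siEGFP cells, with values of -0.86 (-2.34 to 0.27) and -0.37 (-1.90 to 0.96). eIF4E7 had 17 and 22 reads in siEgg and 15 and 24 in siEGFP cells, with values of 0.06 (-0.94 to 1.04) and -0.35 (-1.43 to 0.59). Neither stood apart from input in either knockdown. eIF4EHP, a cap-binding protein that represses translation, stood at -0.15 (-0.64 to 0.33) in siEgg and -0.90 (-1.17 to -0.14) in siEGFP cells, from 62 and 93 reads against 50 and 95. With quantile scaling its siEGFP value was -1.15 and was called lower. eIF4E6 had 4 and 7 reads in siEgg cells and 10 and 7 in siEGFP cells, too few to test.

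eIF4E5, a paralogue at 3L:7894880-7896009, was lower in the siEGFP ChIP. It had 6.35 RPKM in the siEgg ChIP, 4.70 in the siEgg input, 3.82 in the siEGFP ChIP and 10.3 in the siEGFP input, from 11, 11, 7 and 23 reads. The siEGFP input was the high library, and the ratio was 0.38 (-0.91 to 1.78) in siEgg and -1.29 (-2.90 to -0.17) in siEGFP cells. The inputs themselves differed by -1.03 (siEgg over siEGFP), the 1 translation factor gene so called, where 1.09% of all genes were lower and 0.327% higher. The ChIP libraries did not pass the threshold between them, and the change of 1.67 (-0.00 to 3.34) was not called.

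The helicase and scaffold partners of eIF4E1 gave no call in siEGFP cells. eIF4A, the helicase that unwinds leader sequences, had a log2 value of 0.16 (-0.47 to 0.83). eIF4AIII, its relative in the exon junction complex, stood at 0.00 in siEgg and -0.56 in siEGFP cells. Its change of 0.56 (-0.76 to 1.89) was not called. Between the ChIP libraries alone the siEgg value was higher by 1.14 (0.16 to 2.52), which was called. By that comparison 8% of the 50 genes were higher, where 4.13% of all genes were. eIF4H1, named for a helicase cofactor, had 44 ChIP and 67 input reads in siEgg and 43 and 73 in siEGFP cells, with values of -0.12 and -0.45. Its paralogue eIF4H2 had 30 and 32 reads in siEgg and 15 and 25 in siEGFP cells, with values of 0.31 and -0.40. eIF4G2, a scaffold needed for male meiosis in flies, had 74 ChIP and 145 input reads in siEgg cells and 60 and 134 in siEGFP cells. Its intervals lay below 0 in siEgg (-0.48, -0.96 to -0.12) and in siEGFP cells (-0.79, -1.34 to -0.43), with values too small for the threshold. Over the 13 of 14 cap-side genes tested, the siEGFP median was -0.37. Of these 1 was higher and 1 lower (7.69% each), where 5.57% and 7.48% of all genes were.

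A pair of cap-side genes lie in heterochromatic regions. eIF4G1, the main scaffold that joins the cap to the small ribosomal subunit, lies on chromosome 4 (4:915297-930715). It had 68 ChIP and 105 input reads in siEgg cells, and 68 and 105 in siEGFP cells, the same whole numbers. In RPKM these were 6.71 and 7.70 in siEgg and 6.40 and 8.06 in siEGFP cells, for log2 values of -0.18 (-0.66 to 0.26) and -0.30 (-0.81 to 0.11). Of the 86 chromosome 4 genes tested, 25 were higher in the siEGFP ChIP, or 29.1%, with a median of 0.47, and eIF4G1 was below that median. Its tested neighbour unc-13, 2966 bases away, stood at 0.01 in siEgg and -0.03 in siEGFP cells.

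eIF4B, which stimulates the helicase, is the 1 gene of the 53 counted as pericentromeric (3L:27842669-27858271). It had 20 ChIP and 22 input reads in siEgg cells and 12 and 17 in siEGFP cells, with values of 0.22 (-0.65 to 1.24) and -0.20 (-1.42 to 0.93). Of 42 tested genes in the same end of 3L, 16 were higher in the siEGFP ChIP and the median was 0.58, which the wide interval of eIF4B includes.

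eIF3, the largest initiation factor, holds the small subunit together with mRNA and other factors. Of its 16 genes tested, 3 (18.8%) were higher and 0 lower in siEGFP cells, where 5.57% and 7.48% of all genes were. The siEGFP median was 0.05. The median change was -0.08. Without the paralogues eIF3d2, eIF3f2 and eIF3g2, the siEGFP median of the remaining 13 was 0.19, and the change median was -0.26.

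eIF3a, the core scaffold subunit, lies at 3R:4429798-4433895. It had 9.54 RPKM in the siEgg ChIP, 6.59 in the siEgg input, 12.1 in the siEGFP ChIP and 4.79 in the siEGFP input, from 62, 58, 83 and 40 reads. Log2 enrichment was 0.49 (-0.01 to 1.07) in siEgg and 1.22 (0.77 to 1.92) in siEGFP cells, and the change was -0.73 (-1.48 to 0.02). Both of its rows had more ChIP than input signal in both knockdowns, and the difference between them did not reach the threshold.

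eIF3b, another core subunit, at 2R:17536213-17539142, had 8.37 RPKM in the siEgg ChIP, 8.77 in the siEgg input, 14.8 in the siEGFP ChIP and 6.51 in the siEGFP input, from 36, 51, 67 and 36 reads. The siEGFP ChIP alone stood high, and the siEgg pair were level. The log2 value was -0.06 (-0.73 to 0.57) in siEgg and 1.10 (0.57 to 1.80) in siEGFP cells. The fall of -1.16 (-2.01 to -0.32) was called, but with both inputs pooled it was -0.77 and no longer past the threshold.

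eIF3m, a subunit at 2R:14163066-14164825, had 8.69 RPKM in the siEgg ChIP, 8.71 in the siEgg input, 17.1 in the siEGFP ChIP and 7.01 in the siEGFP input, from 16, 21, 27 and 16 reads. Its log2 value was -0.00 (-0.99 to 1.05) in siEgg and 1.21 (0.09 to 2.03) in siEGFP cells. The change was -1.21 (-2.49 to 0.07), so the counts could not separate it from 0. In siEGFP cells ChIP exceeded input in 1 of its 2 rows, where it had 21 reads against 7, while the other row had 6 against 9.

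The remaining eIF3 genes were not called. eIF3h came nearest, at -0.20 (-1.21 to 0.75) in siEgg and 0.82 (0.09 to 1.75) in siEGFP cells. Centring on the median gene brought it past the threshold, at 1.11, and its change too, at -1.24. The 5 subunits eIF3c, eIF3d1, eIF3e, eIF3k and eIF3l had siEGFP values between -0.18 and 0.19. Further subunits eIF3i and eIF3j stood at 0.25 and -0.36.

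Where eIF3 has duplicate genes, the copy counted as general had the higher siEGFP value in each pair, with overlapping intervals. eIF3g1 had 18 ChIP and 19 input reads in siEgg and 28 and 22 in siEGFP cells, with values of 0.33 and 0.59 (-0.23 to 1.50). eIF3g2 had 14 and 12 reads in siEgg and 6 and 16 in siEGFP cells, with values of 0.59 and -0.99 (-2.78 to 0.29), and its change of 1.59 (-0.12 to 3.29) was not called. The eIF3d and eIF3f pairs lay closer together than the eIF3g pair. eIF3d1 had 20 and 23 reads in siEgg and 31 and 37 in siEGFP cells, with values of 0.21 and 0.02 (-0.71 to 0.75). For eIF3d2 there were 27 and 36 reads in siEgg and 20 and 28 in siEGFP cells, with values of 0.02 and -0.18 (-1.11 to 0.68). No library of this pair set a gene apart from its input. eIF3f1 had 18 and 24 reads in siEgg and 12 and 21 in siEGFP cells, with values of 0.02 and -0.47 (-1.68 to 0.56). For eIF3f2 there were 12 and 18 reads in siEgg and 7 and 16 in siEGFP cells, with values of -0.14 and -0.80 (-2.44 to 0.45). Across all genes counted as paralogues, 10 of 11 were tested and had a siEGFP median of -0.38, with 0 higher and 1 (10%) lower. Those counted as general, 40 of 42 tested, had a median of -0.01, with 6 (15%) higher and 2 (5%) lower. Over all genes 5.57% were higher and 7.48% lower, and the difference between the classes was not tested. The general and paralogue classes were set after the values were known and are a description. eIF4EHP and eIF4AIII, though related to eIF4E1 and eIF4A, were counted as general.

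Factors that scan for the start codon gave 1 call, with 1 of 6 genes (16.7%) higher in siEGFP cells, where 5.57% of all genes were. eIF1, which guards start codon choice, lies at 3L:3223341-3224650 with 1 row. It had 6.92 RPKM in the siEgg ChIP, 4.48 in the siEgg input, 22.9 in the siEGFP ChIP and 8.74 in the siEGFP input, from 8, 7, 28 and 13 reads. Its log2 enrichment was 0.56 (-1.03 to 2.32) in siEgg and 1.32 (0.39 to 2.46) in siEGFP cells. Between the ChIP libraries the fall passed the threshold at -1.63, but the siEgg input was also lower, by -0.87, and the change of -0.76 (-2.46 to 0.93) was not called.

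eIF5, which makes eIF2 hydrolyse its GTP at the start codon, had 41 ChIP and 42 input reads in siEgg cells and 57 and 34 in siEGFP cells. Its values were 0.37 (-0.26 to 1.06) and 0.93 (0.39 to 1.68). The siEGFP interval was above 0, and the value was just under 2-fold. Centred on the median gene it was 1.23 and was called. eIF1A, which works with eIF1, stood at 0.41 in siEgg and 0.08 in siEGFP cells.

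eIF2 carries the initiator tRNA, and none of its 3 subunit genes was called. eIF2alpha, the subunit phosphorylated under stress, had -0.73 (-1.78 to 0.19) in siEgg and 0.32 (-0.71 to 1.45) in siEGFP cells, and eIF2beta had 0.49 (-0.70 to 1.81) and 0.34 (-0.71 to 1.45). The change of eIF2alpha was -1.05 (-2.37 to 0.27), and with quantile scaling it was -1.50 and was called. eIF2gamma, the GTP-binding subunit, overlaps Su(var)3-9, which encodes another histone H3 methyltransferase, so their DNA is in part shared. eIF2gamma stood at 0.35 (-0.47 to 1.33) in siEgg and -0.31 (-1.46 to 0.47) in siEGFP cells. Su(var)3-9 itself stood at 0.07 (-0.90 to 1.03) and 0.10 (-0.75 to 0.96). Over all 6 genes of the scanning complex the siEGFP median was 0.33.

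eIF2B recharges eIF2 with GTP. Its 5 subunit genes had a siEGFP median of -0.74, with none called. The catalytic subunit eIF2Bepsilon stood at -0.19 in siEgg and -0.00 in siEGFP cells, and eIF2Balpha at 0.28 and 0.11. eIF2Bgamma had 26 ChIP and 25 input reads in siEgg and 12 and 26 in siEGFP cells. Its change of 1.20 (-0.05 to 2.44) was not called, though the siEgg ChIP alone was above the siEGFP ChIP by 1.08. eIF2Bbeta and eIF2Bdelta had siEGFP values of -0.76 and -0.80.

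eIF2D, which can deliver tRNA outside the usual route and takes part in ribosome recycling, had the lowest siEGFP value of the 50 genes. It lies at 3R:29149896-29151794 and has 1 row. The values were 7.04 RPKM in the siEgg ChIP, 7.34 in the siEgg input, 1.21 in the siEGFP ChIP and 6.97 in the siEGFP input, from 22, 31, 4 and 28 reads. The siEGFP ChIP was low and the other 3 libraries were level. Its log2 value was -0.06 (-0.92 to 0.77) in siEgg and -2.01 (-4.50 to -1.01) in siEGFP cells, and the rise of 1.95 (0.32 to 3.58) was called. It was 1.11 with the larger pseudocount and 1.44 with quantile scaling, neither of them called. The low siEGFP ChIP value also enters this rise, so the rise is not independent of the low call. eIF2D overlaps Pglym78, a glycolytic enzyme gene, which had -0.22 (-1.43 to 0.98) in siEgg and 0.73 (-0.05 to 1.76) in siEGFP cells and so did not share the low value.

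The subunit joining GTPase eIF5B had 54 ChIP and 107 input reads in siEgg and 79 and 79 in siEGFP cells. Its ratio was -0.51 (-1.05 to -0.07) in siEgg and 0.24 (-0.19 to 0.75) in siEGFP cells, with a change of -0.75 (-1.40 to -0.10), which did not reach 2-fold. eIF6, which keeps the ribosomal subunits apart, had -0.37 in siEgg and -0.11 in siEGFP cells. eIF2A, an alternative initiator tRNA carrier, had 0.02 and -0.26.

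Among elongation factors, genes of 1 complex were called in opposite directions. Of 6 elongation factor genes tested, 1 was higher and 1 lower in siEGFP cells (16.7% each), where 5.57% and 7.48% of all genes were. The complex that reloads eEF1alpha with GTP is made of eEF1beta, eEF1gamma and eEF1delta. eEF1delta, an exchange subunit at 2L:10232507-10234450, had 7.98 RPKM in the siEgg ChIP, 9.24 in the siEgg input, 23.8 in the siEGFP ChIP and 5.57 in the siEGFP input, from 9, 13, 28 and 7 reads. Its log2 enrichment was -0.20 (-1.50 to 1.24) in siEgg and 1.97 (1.05 to 3.72) in siEGFP cells, or 3.91-fold, the highest of the 50 genes. Both of its rows had more ChIP than input in siEGFP cells, and the change was -2.16 (-3.83 to -0.50).

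eEF1gamma, the anchoring subunit at 3R:29220172-29222109, had 7.0 RPKM in the siEgg ChIP, 7.53 in the siEgg input, 2.64 in the siEGFP ChIP and 6.56 in the siEGFP input, from 20, 29, 8 and 24 reads. The siEGFP ChIP was the low library, and ChIP lay under input in all 3 rows there. The log2 value was -0.10 (-1.0 to 0.77) in siEgg and -1.12 (-2.67 to -0.10) in siEGFP cells, and the change of 1.02 (-0.37 to 2.41) was not called. Between the ChIP libraries alone the siEgg value was higher by 1.20 (0.16 to 2.80), which was called. eEF1beta, the other exchange subunit, had 5 ChIP and 6 input reads in siEgg and 8 and 9 in siEGFP cells, too few to test.

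The eEF1alpha genes, whose products deliver aminoacyl-tRNA, were near input. eEF1alpha1 had 34 ChIP and 42 input reads in siEgg and 27 and 35 in siEGFP cells, with values of 0.10 (-0.57 to 0.82) and -0.07 (-0.87 to 0.67). eEF1alpha2 had 25 and 34 reads in siEgg and 35 and 50 in siEGFP cells, with values of -0.01 (-0.82 to 0.78) and -0.22 (-0.90 to 0.42). eEF2, the translocase, had 39 ChIP and 43 input reads in siEgg and 23 and 47 in siEGFP cells. Its change of 0.99 (0.05 to 1.94) lay just under 2-fold. eEFSec, the factor for selenocysteine, stood at -0.07 in siEgg and -0.63 in siEGFP cells. eEF5, known as eIF5A in other species, helps ribosomes through difficult stretches of peptide. It had 4 ChIP and 9 input reads in siEgg and 16 and 9 in siEGFP cells, too few for the filter.

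**Figure D4:**
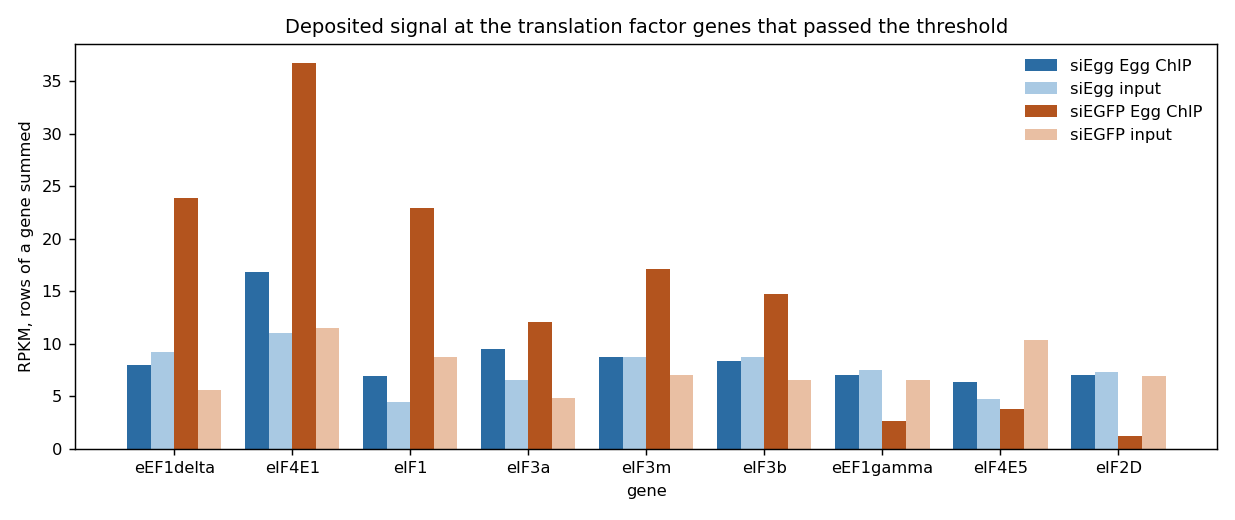
RPKM in the siEgg ChIP and input (blue) and the siEGFP ChIP and input (orange) of the 9 translation factor genes that passed the threshold in the siEGFP ratio, the siEgg ratio or the change. The siEGFP ChIP bar is the tallest at the 6 enriched genes and the lowest at eEF1gamma, eIF4E5 and eIF2D.

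The genes around the 6 enriched translation factor genes were examined within 5 kb. Of 22 tested neighbours, 4 were higher in the siEGFP ChIP and 0 lower, where 5.57% and 7.48% of all genes were. Their median was -0.27, beside -0.29 for all genes. Of the 4, 2 lay beside eEF1delta. The surroundings differed from gene to gene. Next to eEF1delta, mthl15, a receptor-like gene 135 bases away, stood at -0.49 in siEgg and 1.01 (0.47 to 1.75) in siEGFP cells and fell by 1.50. The gene ova, a factor of piRNA-guided silencing 815 bases away, had 37 ChIP and 31 input reads in siEgg and 80 and 30 in siEGFP cells. Its value was 0.67 in siEgg and 1.58 (1.07 to 2.35) in siEGFP cells, with a change of -0.91 (-1.82 to 0.00).

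Around eIF4E1 and eIF3b no neighbour was called. CG4080, Cpr67B and CG4022 beside eIF4E1 had siEGFP values between -0.56 and -0.40. Patronin and Cc2d2a, 347 and 180 bases from eIF3b, stood at -0.45 (-0.94 to -0.10) and -0.88 (-1.61 to -0.38). Beside eIF1, the ribosomal protein gene RpL28 had 0.97 (0.17 to 1.93), just under the threshold, and Larp4B had 0.11. Further off, hob had 117 ChIP and 136 input reads in siEgg and 71 and 170 in siEGFP cells. Its values were 0.20 and -0.89 (-1.40 to -0.57), and it rose by 1.09 (0.56 to 1.63), where eIF1 had a change below 0. Lipt2 near eIF3a and CG18324 near eIF3m were called higher, at 1.07 and 1.27, from 24 and 19 siEGFP ChIP reads, with the closer neighbours not called.

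A called neighbour also lay beside eEF1gamma. The noncoding RNA gene lncRNA:CR31044, 505 bases away, had 47 ChIP and 88 input reads in siEgg and 97 and 52 in siEGFP cells, for values of -0.52 and 1.06 (0.68 to 1.70). Its change was -1.58 (-2.28 to -0.87), where eEF1gamma had a siEGFP value below 0.

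**Figure D5:**
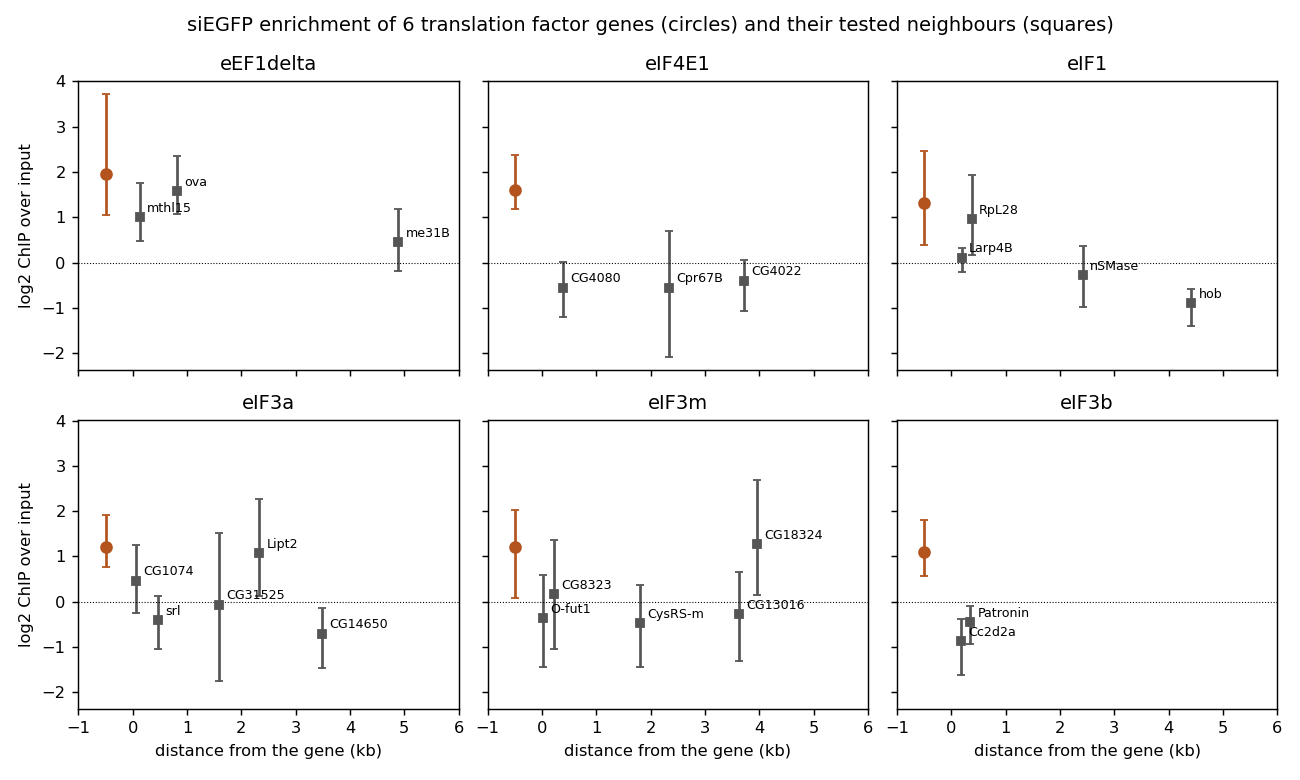
Log2 Egg ChIP over input in siEGFP cells with 95% counting intervals for the 6 enriched translation factor genes (circles, drawn left of 0 kb) and their tested neighbours (squares) by distance in kb. Both nearer neighbours of eEF1delta are above 1, and all neighbours of eIF4E1 and eIF3b are below 0.

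Other genes of translation whose symbols do not begin with eIF or eEF were taken from a list drawn up by function, with earlier results of these data known. Of 31 found, 30 were tested, and DENR, a partner of MCTS1 in reinitiation, had too few reads. In siEGFP cells 1 (3.33%) was higher and 0 lower, where 5.57% and 7.48% of all genes were, and the median was -0.05. The higher gene was 4E-T on chromosome 4, an eIF4E-binding protein of mRNA granules, with 56 ChIP and 49 input reads in siEgg and 87 and 43 in siEGFP cells, or 0.55 and 1.19 (0.75 to 1.86). In siEgg cells Rack1, a ribosome-bound scaffold, was higher at 1.23 (0.18 to 2.63), from 19 ChIP and 10 input reads, beside 17 and 26 in siEGFP cells. Rack1 was the 1 gene of the 30 (3.33%) so called, where 1.24% of all genes were. Its siEgg input was the low library, called lower than the siEGFP input at -1.28, while the ChIP libraries differed by 0.23 with no call.

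In the change, 1 of these genes (3.33%) fell and 2 (6.67%) rose, where 3.24% and 4.93% of all genes did. eRF3, the termination GTPase, fell by 1.22 on the log2 scale, with -0.72 in siEgg and 0.50 in siEGFP cells. NAT1, a relative of eIF4G, rose by 1.30 (0.51 to 2.10), with 54 ChIP and 59 input reads in siEgg and 31 and 81 in siEGFP cells. Rack1, with the low siEgg input given above, rose by 1.51 (0.12 to 2.90). The eIF4E-binding protein Thor, the poly(A)-binding protein gene pAbp, and the kinase genes S6k, mTor, Gcn2 and PEK were not called.

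Beside the translation factors, the genes of the ribosome itself had higher medians. Among 62 tested genes of cytoplasmic ribosomal proteins, the siEGFP median was 0.69. Of them 18 (29.0%) were higher and 10 (16.1%) fell, against 6 of 50 (12%) higher and 3 (6%) fallen here. Over all genes 5.57% were higher and 3.24% fell. Among 50 genes of mitochondrial ribosomal proteins the median was 0.32, with 11 (22%) higher and 3 (6%) fallen. The median gene of both ribosomal lists had 13 siEGFP input reads, beside 24.5 for the translation factors. That is close to the filter of 10 reads, which also counts ChIP reads. These medians are a description of the libraries, and the difference between the lists was not tested.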

How the data were processed

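The authors deposited 35327 rows for RefSeq transcripts and 175 for transposons, with 4 value columns. The deposited values are RPKM, a unit read here from the values themselves. The submitters' processing notes name Bowtie2 2.2.4 and dm6, and how reads were counted or samples pooled is not given in the sources used here. Whole reads were recovered from the RPKM, with library depth set by genes with 1 row whose length equals the genomic span (2967 of 8720 such genes). All 34762 rows above 0 came out whole within 0.0001 reads. The smallest solution was taken, so some rows may hold a multiple of the reads given, and their intervals are then too wide. PCR copies were not told apart. Gene names and positions came from RefSeq for dm6.

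RPKM of a gene's rows were summed, and 0.7 RPKM, the median siEGFP input divided by 10, was added before each ratio. A gene was tested if 2 or more libraries had 10 reads and 2 or more had RPKM over that pseudocount. Ratios have exact Clopper-Pearson intervals on summed reads, which can lie off-centre from the value. Changes have normal intervals, computed after adding 0.5 to the counts. Genes counted as pericentromeric have their midpoint beyond 22 Mb on 2L or X or 23 Mb on 3L, or in the first 6 Mb of 2R or 4 Mb of 3R. The planned model with replicates could not be fitted to 1 column per group. The scripts (Python 3.11.15, scipy 1.17.1) were tested on simulated data. Reads or RPKM were given in every library for called genes, the 5 highest and 5 lowest in siEGFP, those in heterochromatin, and paralogues. The members and lists were chosen with earlier results of these data known. Alternatives were the pseudocount, read filters, scaling, pooled inputs, a single row per gene, ChIP libraries alone, ratios of summed reads and doubled reads in short rows.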

Additional observations from a re-analysis of the deposited data

How the results depend on the processing

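Counts of translation factor genes are given with those of all genes in parentheses, which moved with the settings too. The 6 (699) higher in siEGFP cells became 3 (464) with a pseudocount 5 times larger, 3 (199) with at least 20 reads in each input, where 29 of 7668 genes tested were translation factors, 3 (619) with quantile scaling and 3 (677) with only the row with the most reads, where 42 of 11086 were. The 3 (939) lower became 1 (230) with the larger pseudocount and 1 (308) after centring on the median gene. The 3 (407) that fell became 1 (178) with the larger pseudocount, 5 (672) after centring and 0 (321) with the row with the most reads. The 1 (619) that rose became 0 (56) with the larger pseudocount, 5 (917) with one 5 times smaller, 0 (298) with quantile scaling, 4 (428) with both inputs pooled, 4 (518) with ChIP libraries without inputs and 5 (906) with the ratio of summed reads, an alternative chosen after seeing the data. Of 2 rows of eIF4E1 with equal reads, the first in the table was taken as its row with the most reads, and it had too few to be tested. The other had 23 siEGFP ChIP and 15 siEgg ChIP reads, which meets the filter. Whether eIF4E1 was tested there thus depended on table order. eEF1delta was not tested in that setting either, nor with at least 20 reads in each input. In siEgg cells no gene was called under any alternative run. No value that was called changed sign. In siEGFP cells eEF1delta stayed past the threshold in 8 of 8 alternatives that gave it a value (1.59 to 2.26), eIF4E1 in 9 of 9 (1.13 to 1.91) and eIF2D in 10 of 10 (-2.40 to -1.15). eIF1 and eIF3a did so in 8 of 9 and 8 of 10, eIF3b in 6 of 10, eIF3m in 6 of 8, eEF1gamma in 6 of 9 and eIF4E5 in 5 of 9. Denominators under 10 leave out settings in which the gene had too few reads to be tested, so those records are not more robust. The fall was kept by eEF1delta in 9 of 9, eIF4E1 in 8 of 10 and eIF3b in 7 of 11, and the rise of eIF2D in 9 of 11. The cause of these shifts was not tested. Depth limits these values: the median gene tested had 18 reads in the siEGFP ChIP, and no interval holds differences between cultures. No paired analysis was possible because the columns carry no replicate number and each group has 1 column; for the same reason no replicate could be left out.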
